A study of Homo sapiens with 3 samples.

Results

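The TGF-β family described here comprised 10 genes: 3 receptors (TGFBR1, TGFBR2 and TGFBR3), 3 ligands (TGFB1, TGFB2 and TGFB3), 3 intracellular signal carriers or inhibitors (SMAD2, SMAD3 and SMAD7) and the secreted target TGFBI. They were picked out by gene symbol, with no measured value in the rule but with earlier results of these data known, and were 10 of the 43316 genes on the array. Expression of mRNA was measured on 3 arrays, with 1 Agilent single-colour array for each of 3 human lung cancer cell lines. H1975 is a non-small cell lung cancer line, sensitive to osimertinib, whose EGFR carries an activating mutation together with a gatekeeper mutation that blocks earlier inhibitors, while osimertinib is an inhibitor made to act on such EGFR. OR1 and OR2 are its osimertinib-resistant derivatives, selected from separate flasks of H1975 with doses raised in steps to 2 μmol/L over 4 months, and all 3 lines were grown in the same serum-containing medium. Whether osimertinib was present when the RNA was isolated is not given in the sources used here. Each resistant line is 1 selected population, and the study's methods call both of them clones.

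TGF-β ligands are secreted in a latent form and, once released, are bound by TGFBR2, which recruits and phosphorylates TGFBR1. TGFBR3, also called betaglycan, is a co-receptor with a short cytoplasmic tail and no kinase, which presents ligand to TGFBR2. TGFBR1 phosphorylates SMAD2 and SMAD3, which enter the nucleus with SMAD4 and regulate target genes, among them SMAD7, whose product blocks the receptor in turn. In epithelial and lung cancer cells the pathway is known for growth arrest and for the transition from an epithelial to a mesenchymal state.

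The brightness of a spot, its intensity, is given here as a scaled intensity, in multiples of the 75th percentile of the same array. Scaled intensities of different probes are not comparable with each other, so every ratio is of 1 probe between lines. Each line had 1 array, so no p-value was computed, and the error given is a technical SD on the log2 scale that follows from the error the scanner software assigned to each spot. Over all genes with signal well above background, a call made by the same software, its median was 0.205 in both resistant lines, and it does not cover the variation between cultures. In bulk RNA from a line, fewer cells with a transcript and less of it per cell cannot be told apart.

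The family was measured by 13 probes, of which 11 were well above background on all 3 arrays. The single TGFBR3 probe was well above background in both resistant lines and not in H1975, and on no array was 1 of the 3 SMAD2 probes well above background. Thus all 10 members passed that call on at least 1 array, and 8 of them had a single probe. The brighter probe of TGFBR2 and the brightest of SMAD2 stood for their genes in all counts.

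At a ratio to H1975 of at least 2 in both resistant lines were 2 members, both of them receptors (TGFBR2 and TGFBR3), against 5.09% of the 22417 genes measured and 4.77% of the 18589 that were well above background on all 3 arrays. At a ratio of at most 0.5 in both lines were also 2 members, the inhibitor SMAD7 and the target TGFBI, against 6.32% and 4.70% of those genes. In OR1 alone, 2 members were past the ratio of 2 (9.17% of genes) and 2 past the ratio of 0.5 (9.58% of genes). In OR2 the numbers were 2 (7.72% of genes) and 3 (8.70% of genes), the third being the ligand TGFB1. Thus 5 members were past a ratio in neither line, namely TGFBR1, TGFB2, TGFB3, SMAD2 and SMAD3. Over the 9 members well above background on all 3 arrays, the median log2 ratio was 0.07 in OR1 and -0.09 in OR2, beside 0.03 and -0.05 over all such genes. OR1 and OR2 were both divided by the same H1975 array, so their ratios are set side by side below and were not used as support for each other.

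**Figure D1:**
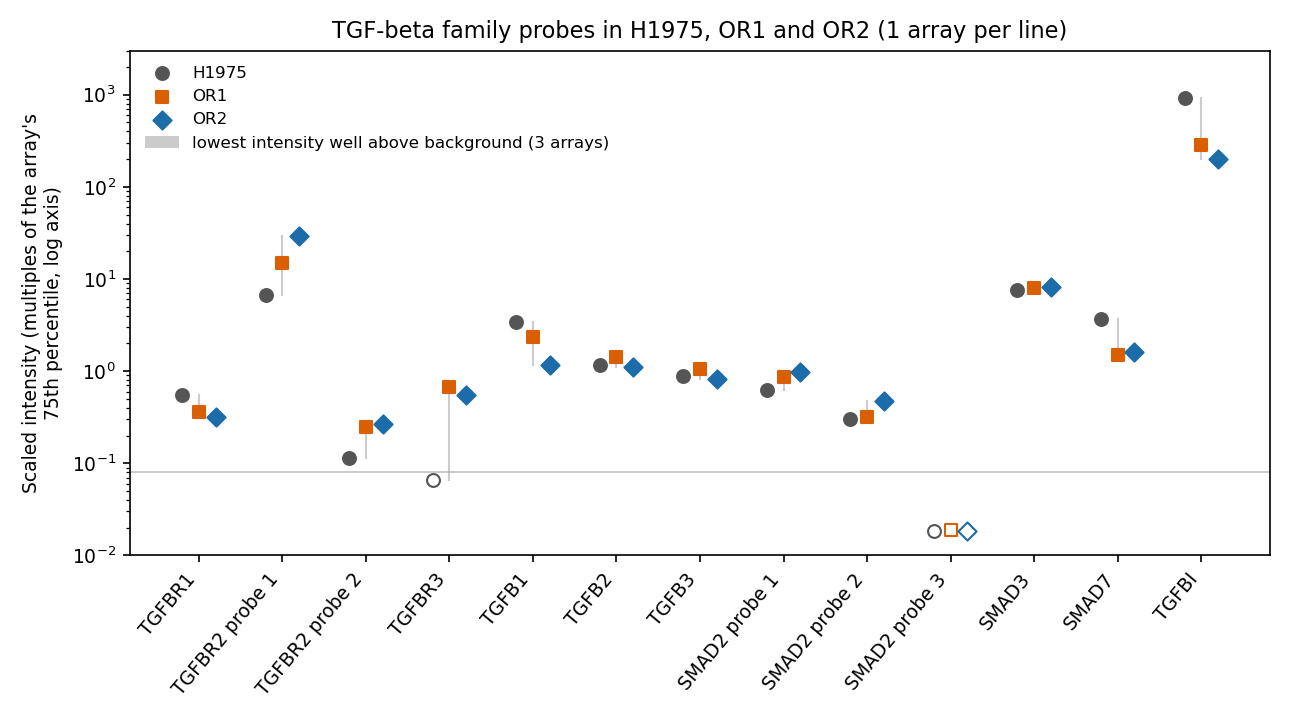
Scaled intensity of each of the 13 probes in H1975, OR1 and OR2 on a log axis, with open symbols for a probe that was not well above background on that array and a grey band for the lowest intensity that was. The TGFBR2 and TGFBR3 probes lay higher in OR1 and OR2 than in H1975, SMAD7 and TGFBI lay lower, and TGFB1 was lower in OR1 (2.36) and lowest in OR2 (1.17).

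Of the receptors, TGFBR2 and TGFBR3 were past the ratio of 2 in both resistant lines and TGFBR1 was not. TGFBR2, the ligand-binding kinase, was measured by 2 probes. The brighter of them (NM_001024847, chromosome 3 of hg19 from 30735163 to 30735222) had a scaled intensity of 6.77 in H1975 against 15.0 in OR1 and 29.1 in OR2. The ratio to H1975 was 2.22 in OR1, with a range of 1.67 to 2.95 at 2 technical SDs on either side, and 4.29 in OR2, with a range of 3.23 to 5.69. H1975 was the lowest of the 3 lines and OR2 the highest, and the ratio of OR2 to OR1 was 1.93 (1.46 to 2.56). The increase in OR2 lay at percentile 98.8 of those 18589 genes, and that in OR1 at percentile 94.2. With scaling on spike-in probes, which are RNAs added during labeling, the ratio in OR1 was 1.46.

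The dimmer TGFBR2 probe (XM_006713316, chromosome 3 from 30703057 to 30703116) had a scaled intensity of 0.115 for H1975, 0.247 for OR1 and 0.264 for OR2. Both resistant lines were again above H1975, at a ratio of 2.14 (1.31 to 3.51) in OR1 and 2.30 (1.41 to 3.73) in OR2. The step from OR1 to OR2 was not seen with this probe, whose ratio of OR2 to OR1 was 1.07 (0.741 to 1.55). Both probes thus gave TGFBR2 a ratio above 2 in each resistant line, although the ranges reached below 2 for both probes in OR1 and for the dimmer one in OR2. For OR2 over OR1 the probes gave different values with overlapping ranges. The dimmer probe in H1975 was near the lowest scaled intensity called well above background there, 0.0798.

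TGFBR3, the co-receptor without a kinase, had 1 probe (NM_003243, chromosome 1 from 92148888 to 92148947). Its scaled intensity was 0.0658 in H1975, where the probe was not well above background, as against 0.668 (OR1) and 0.547 (OR2). A ratio against such a value is a bound, computed with H1975 set to the lowest intensity that was called well above background on its array. TGFBR3 was at least 8.38-fold higher in OR1 and at least 6.85-fold higher in OR2, each with a technical SD of 0.46 (log2), and OR1 and OR2 differed from each other by less than 2 technical SDs (ratio 0.818, 0.606 to 1.1, and 1.30 with spike-in scaling). The bounds were 2.14 and 1.88 with normexp, a background correction that adds an offset to every spot.

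TGFBR1, the kinase that phosphorylates the SMADs, was below H1975 in both resistant lines. The probe (NM_004612, chromosome 9 from 101916322 to 101916381) had a scaled intensity of 0.550 in H1975, compared with 0.360 in OR1 and 0.321 in OR2. H1975 was the highest line, with a ratio of 0.654 (0.483 to 0.886) in OR1 and 0.584 (0.431 to 0.793) in OR2, neither of them past the ratio of 0.5. OR1 and OR2 were within 2 technical SDs of each other (ratio 0.893, 0.653 to 1.22, and 1.42 with spike-in scaling).

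**Figure D2:**
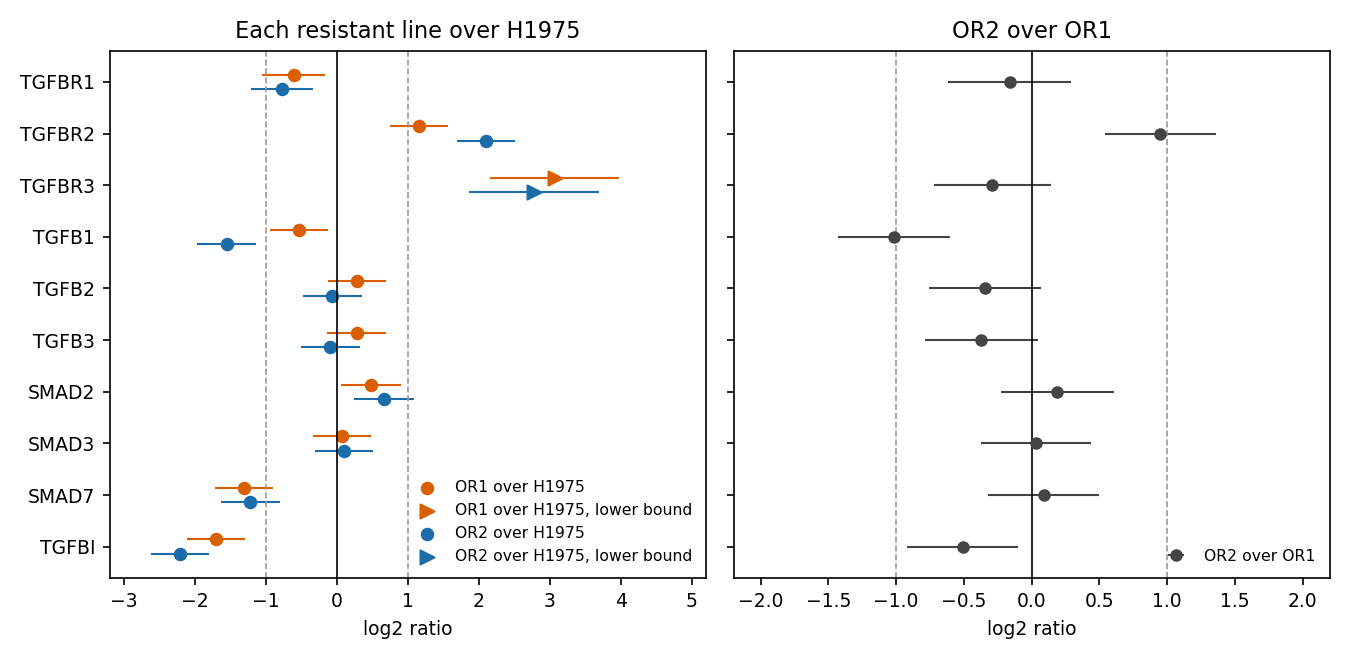
Log2 ratios of the 10 members with bars of 2 technical SDs, for OR1 and OR2 over H1975 on the left and for OR2 over OR1 on the right, where dashed lines mark the ratios of 2 and 0.5 and arrowheads mark lower bounds. TGFBR2 and TGFBR3 lay beyond the upper line and SMAD7 and TGFBI beyond the lower line in both resistant lines, while TGFB1 passed the lower line in OR2, at 0.340, and, with the scaling used here, in OR2 over OR1, at 0.495.

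Of the 3 ligands, TGFB1 differed most between lines and the others little. The TGFB1 probe (NM_000660) matched the transcript across a splice junction, since its 60 bases span 9661 bases of chromosome 19, from 41838142 to 41847802 on the minus strand. It is shown because it is the single measure of the ligand and reads spliced mRNA:

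TGFB1 probe: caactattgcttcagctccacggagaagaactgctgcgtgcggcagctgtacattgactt

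TGFB1 had a scaled intensity of 3.44 in H1975 against 2.36 in OR1 and 1.17 in OR2. The order of the lines was H1975, OR1, OR2, with a ratio of 0.688 (0.518 to 0.913) in OR1 and 0.340 (0.256 to 0.452) in OR2. OR2 was also below OR1, at a ratio of 0.495 (0.372 to 0.658), which made TGFB1 the 1 member past the ratio of 0.5 between the resistant lines (2.89% of genes), while 0 members were past the ratio of 2 (2.48% of genes). That 0 holds for the main scaling, since TGFBR2 was past 2 in OR2 over OR1 under 6 of 7 other ways of scaling or background correction, at 1.97 to 3.07 over the 7. The value in OR2 lay at percentile 2.51 of all genes and that in OR1 at percentile 18.3. Scaled on spike-in probes, OR1 also passed 0.5, at 0.453. The ratio of OR2 to OR1 was past 0.5 under 2 of 7 other ways of scaling or background correction and lay between 0.493 and 0.787 over all 7. Those 2 ways were quantile normalization and the authors' deposited values, which were nearly identical to each other. Both are also among the 6 given above for TGFBR2.

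TGFB2 (NM_003238, chromosome 1 from 218614784 to 218614843) had a scaled intensity of 1.18 for H1975, 1.43 for OR1 and 1.12 for OR2. Its ratios, 1.21 (0.912 to 1.62) in OR1 and 0.955 (0.717 to 1.27) in OR2, were both within 2 technical SDs of 1. TGFB3 (NM_003239, chromosome 14 from 76424904 to 76424963) had nearly the same pattern, with 0.877 in H1975, compared with 1.06 in OR1 and 0.822 in OR2. Its ratios of 1.21 (0.909 to 1.62) and 0.937 (0.702 to 1.25) were likewise within 2 technical SDs of 1, and with spike-in scaling both ligands came out below H1975 in OR1, at 0.801 for TGFB2 and 0.799 for TGFB3.

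Of the SMADs, the inhibitor SMAD7 was past a ratio and the signal carriers were not. SMAD3 (NM_005902, chromosome 15 from 67487391 to 67487450), which binds DNA directly, had a scaled intensity of 7.63 in H1975 against 8.02 in OR1 and 8.20 in OR2. The lines were close, at ratios of 1.05 (0.792 to 1.39) in OR1 and 1.07 (0.810 to 1.43) in OR2, the former below 1 under 4 of 7 other ways of scaling or background correction and 0.693 with spike-in scaling.

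SMAD2, the other receptor-activated SMAD of the family, had a scaled intensity of 0.619 for H1975, 0.863 for OR1 and 0.983 for OR2 by its brightest probe (ENST00000262160, chromosome 18 from 45348228 to 45348287), which the array design also lists under a long non-coding RNA. A second probe (NM_001003652, chromosome 18 from 45360188 to 45360247) gave 0.300 in H1975, compared with 0.320 in OR1 and 0.470 in OR2. In OR2 both probes were above H1975, at ratios of 1.59 (1.19 to 2.13) and 1.57 (1.14 to 2.15). In OR1 the ratios were 1.39 (1.04 to 1.87) and 1.07 (0.765 to 1.49), and the former was 0.919 with spike-in scaling. The third SMAD2 probe (chromosome 18 from 45347319 to 45347378, minus strand) gave no ratio, since on no array was it well above background.

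SMAD7, the inhibitor of the receptor that is itself a target of the pathway, was lower in both resistant lines. Its probe (NM_005904, chromosome 18 from 46446782 to 46446841) had a scaled intensity of 3.71 in H1975 against 1.5 in OR1 and 1.59 in OR2. The ratio to H1975 was 0.404 (0.304 to 0.538) in OR1 and 0.430 (0.323 to 0.571) in OR2, and OR1 and OR2 lay within 2 technical SDs of each other (ratio 1.06, 0.799 to 1.41). With normexp the ratio in OR2 was 0.505, just short of the count.

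TGFBI, a secreted matrix protein named for its induction by TGF-β, was bright in all 3 lines. The probe (NM_000358, chromosome 5 from 135399343 to 135399402) had a scaled intensity of 924 for H1975, 284 for OR1 and 199 for OR2, and no spot on any array was saturated. The ratio to H1975 was 0.307 (0.231 to 0.407) in OR1 and 0.216 (0.163 to 0.286) in OR2. OR2 was below OR1 at a ratio of 0.702 (0.529 to 0.932), although with spike-in scaling that ratio was 1.12. TGFBI in OR2 lay at percentile 1.01 of all genes, and SMAD7 at percentile 4.36.

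**Figure D3:**
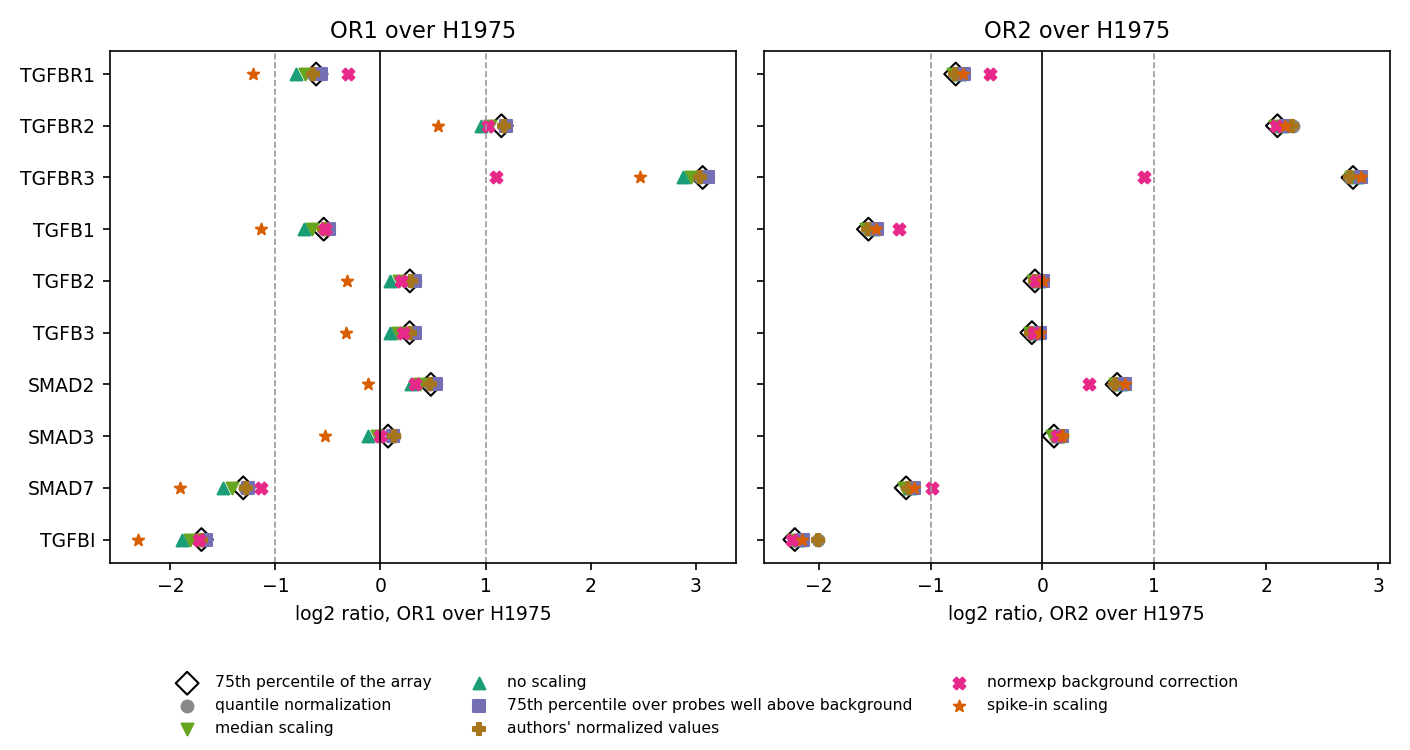
Log2 ratio of each member to H1975 in OR1 (left) and OR2 (right) under the main scaling (open diamonds) and 7 other ways of scaling or background correction, with dashed lines at the ratios of 2 and 0.5. In OR1 the ratios with spike-in scaling lay lowest for 9 members, which put TGFBR2 at 1.46, TGFB1 at 0.453 and TGFB2, TGFB3, SMAD2 and SMAD3 below 1, and in both lines normexp correction placed TGFBR3 nearest to 1.

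The promoters of the 4 members past a ratio in both lines are shown because SMAD proteins bind the letters CAGAC, and a pair of the shorter AGAC facing each other as GTCTAGAC. Each is the 250 bases before an annotated transcription start (RefSeq, GRCh38.p14), written 5′ to 3′ on the gene's strand, at the most upstream start where a gene has several. Capitals mark CAGAC on either strand, written GTCTG where it lies on the other strand. The SMAD7 window is chr18:48950966-48951215 (minus strand), that of TGFBI chr5:136028738-136028987 (plus strand), that of TGFBR2 chr3:30606106-30606355 (plus strand) and that of TGFBR3 chr1:91886152-91886401 (minus strand).

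SMAD7 promoter: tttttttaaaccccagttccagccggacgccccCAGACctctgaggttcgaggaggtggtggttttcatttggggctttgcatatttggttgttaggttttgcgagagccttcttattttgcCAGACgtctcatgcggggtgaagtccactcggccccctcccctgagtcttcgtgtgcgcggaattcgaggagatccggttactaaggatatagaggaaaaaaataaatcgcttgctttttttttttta
TGFBI promoter: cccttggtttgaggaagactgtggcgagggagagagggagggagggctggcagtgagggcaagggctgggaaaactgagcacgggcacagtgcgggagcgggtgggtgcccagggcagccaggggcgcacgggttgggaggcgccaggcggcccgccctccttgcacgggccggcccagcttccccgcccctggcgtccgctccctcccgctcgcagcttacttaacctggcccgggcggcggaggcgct
TGFBR2 promoter: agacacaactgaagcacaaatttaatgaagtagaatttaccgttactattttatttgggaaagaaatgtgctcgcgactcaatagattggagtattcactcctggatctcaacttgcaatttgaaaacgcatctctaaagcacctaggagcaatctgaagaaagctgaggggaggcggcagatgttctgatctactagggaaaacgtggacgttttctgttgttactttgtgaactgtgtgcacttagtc
TGFBR3 promoter: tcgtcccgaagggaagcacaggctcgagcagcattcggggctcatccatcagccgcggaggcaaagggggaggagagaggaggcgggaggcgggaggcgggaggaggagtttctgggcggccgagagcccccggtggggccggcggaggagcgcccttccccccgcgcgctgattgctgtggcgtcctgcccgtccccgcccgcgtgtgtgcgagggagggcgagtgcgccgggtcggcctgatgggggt

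The SMAD7 window held CAGAC at 2 places, and a window at another SMAD7 start (chr18:48949334-48949583, minus strand) held it once. The windows of TGFBI, TGFBR2 and TGFBR3 held none, including the other TGFBR2 window. Over the whole family, 10 of 26 windows held CAGAC, beside 38% of all 35116 windows of this length, and 0 of 26 held GTCTAGAC, beside 0.182%. TGFBR1 alone gave 8 of the 26 windows, and some of them overlap, so the same match can be counted more than once. A match is a description of these letters and not a measured binding site.

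The genes that lie nearest to the members on the chromosome (hg19) were also read. The median log2 ratio of the 20 measured genes nearest to TGFBR2 was 0.37 in OR1 and 0.33 in OR2, below the 1.15 and 2.10 of TGFBR2 itself. Around TGFBR3 it was 0.28 and 0.17, around TGFB1 0.21 and -0.16, around SMAD7 0.26 and 0.18, and around TGFBI -0.23 and -0.39. The medians around SMAD7 were above 0, the opposite side from SMAD7, whose log2 ratios were -1.31 and -1.22.

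The genes whose 2 ratios to H1975 lay nearest to those of a member were found over the 3 arrays, among 18588 other genes, or 808 genes with the same background calls for TGFBR3. Nearest to TGFBR2 were the non-coding genes OGFR-AS1 (2.13 in OR1, 4.24 in OR2) and LINC00173 (2.36 and 4.29). Nearest to SMAD7 was SLC11A2, a metal ion transporter (0.401 and 0.431), then an unnamed transcript (ENST00000434790, 0.409 and 0.434). Nearest to TGFBI were the non-coding CASC21 (0.311 and 0.216) and CDT1, a factor that licenses DNA replication (0.318 and 0.213). Nearest to TGFBR3, by measured intensities, where its own ratios were 10.2 and 8.31, was the non-coding lnc-FRG1-5 (10.2 and 7.78), of those reported here. With 3 arrays, likeness over 2 ratios is a description only.

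The rest of the pathway was followed with 4 lists of 88 genes in all, of which 79 passed the background call on at least 1 array. Of these, 8 were at a ratio of at least 2 in both resistant lines and 19 at a ratio of at most 0.5, beside 5.09% and 6.32% of all genes. The lists were drawn up with earlier results of these data known, so their shares are descriptions. The list of genes that TGF-β is known to induce held 13 of the 19.

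Among 18 genes that store or activate the ligands, 13 were measured, 0 were at least 2-fold higher in both lines and 3 were at or below 0.5 in both (23.1%), beside 6.32% of all genes. Only ITGB3 of these 3 was well above background on all 3 arrays, a call that 9 genes of the list passed. Among all genes passing it, 4.70% were at or below 0.5 in both. ITGB6, the integrin subunit that releases active TGF-β on epithelial cells, had a scaled intensity of 1.13 in H1975 and fell below that background call in both resistant lines, at ratios of at most 0.0733 and at most 0.0692. ITGB3, another integrin subunit that binds the latent ligand, went from 5.35 in H1975 to 1.51 and 1.41 in the resistant lines, and LTBP1, which anchors latent TGF-β in the matrix, from 0.942 to 0.221 and 0.0827, the last not well above background. The median log2 ratio of the 9 genes that passed the call on all 3 arrays was 0.24 in OR1 and -0.53 in OR2, and -0.38 and -0.68 with the bounds of the dim genes included.

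Among 23 receptor partners and SMAD regulators, 21 were measured. SMAD4, the partner of SMAD2 and SMAD3, had a scaled intensity of 7.01 in H1975, compared with 6.52 in OR1 and 7.97 in OR2, with ratios of 0.931 and 1.14 that were within 2 technical SDs of 1. With the main scaling, 4 genes were at a ratio of at least 2 in both lines (19% beside 5.09% of all genes). These 4 are inhibitors of the pathway with 1 exception. SMAD6, an inhibitory SMAD like SMAD7, was at 2.11 in H1975 against 4.73 in OR1 and 4.42 in OR2, so that it was above H1975 by 2.25-fold and 2.10-fold where SMAD7 was below it. BAMBI, a receptor decoy without a kinase, had ratios of 3.24 and 2.04, and NEDD4L, a ubiquitin ligase that degrades activated SMADs, had ratios of 3.26 and 4.07. The exception, PARD6A, a polarity protein that is phosphorylated by TGFBR2, did not pass the background call in H1975 and was at least 7.41-fold and at least 4.70-fold higher. At or below 0.5 in both lines were 2 genes (9.52%), both ubiquitin ligases that act with SMAD7 on the receptor, SMURF1 (0.282 and 0.394) and WWP1 (0.419 and 0.492). The median log2 ratio of the list was 0.15 in OR1 and 0.03 in OR2. USP4, another gene of this list, was just short of the count, at ratios of 2.06 in OR1 and 1.93 in OR2. It was past 2 in both lines with quantile normalization, the authors' values and the percentile over well measured probes. SMAD6 was no longer past 2 in both lines with no scaling, spike-in scaling or normexp. Which regulators were counted, and the share of inhibitors among them, thus depended on the processing. WWP1 was past 0.5 in both lines only with the main and the median scaling. With normexp, PARD6A and SMURF1 were also no longer past a ratio in both lines.

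Of 40 genes known to be induced by TGF-β, 38 were measured, and 13 of these (34.2%) were at or below 0.5 in both lines, beside 6.32% of all genes. PMEPA1, a membrane protein that feeds back on SMAD signaling, had a scaled intensity of 52.3 for H1975, 2.11 for OR1 and 1.02 for OR2, a ratio of 0.0403 and 0.0194. IL11, a cytokine, went from 47.5 to 5.12 and 3.57, at ratios of 0.108 and 0.0753. These genes and the members SMAD7 and TGFBI were all lower in both resistant lines than in H1975.

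Also at or below 0.5 in both lines were the collagen gene COL1A2 (0.162 in OR1 and at most 0.0615 in OR2), the growth factor gene PDGFB (0.188 and 0.199), the SMAD corepressor gene SKIL (0.316 and 0.206), the protease gene MMP9 (0.285 and 0.317) and the transcription factor gene BHLHE40 (0.319 and 0.289). A further 5 of the 13 had ratios of 0.229 to 0.413 in OR1 and of 0.284 to 0.467 in OR2. In the other direction, 4 of the 38 (10.5% beside 5.09% of all genes) were at a ratio of at least 2 in both lines. TAGLN and CNN1, which bind actin in contractile cells, went from 2.12 in H1975 to 43.5 (OR1) and 13.6 (OR2), and from 1.33 to 21.8 and 4.68. ZEB1, a repressor of epithelial genes, had ratios of 4.74 and 5.14, and CCN2, a matricellular growth factor, had ratios of 3.68 and 2.41. The median log2 ratio of the list was -0.57 in OR1 and -1.0 in OR2, beside 0.03 and -0.05 over all genes, each taken over genes well above background on all 3 arrays. Under the 7 other ways of scaling or background correction, the number at or below 0.5 in both lines was 12 to 15, and that at or above 2 was 3 to 5, with CCN2 no longer counted under normexp.

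Of 7 genes that TGF-β is known to repress, all were measured, 0 were at a ratio of at least 2 in both lines, and 1 (14.3%) was at or below 0.5. That gene was CDH1, which encodes E-cadherin, with a scaled intensity of 35.8 in H1975, compared with 0.734 in OR1 and 2.87 in OR2, and ratios of 0.0205 and 0.0800. The median log2 ratio of the list was 0.32 in OR1 and 0.14 in OR2. With spike-in scaling the medians in OR1 turned negative for ligand storage (-0.36), regulators (-0.45) and repressed targets (-0.29), while that of all genes moved to -0.57.

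**Figure D4:**
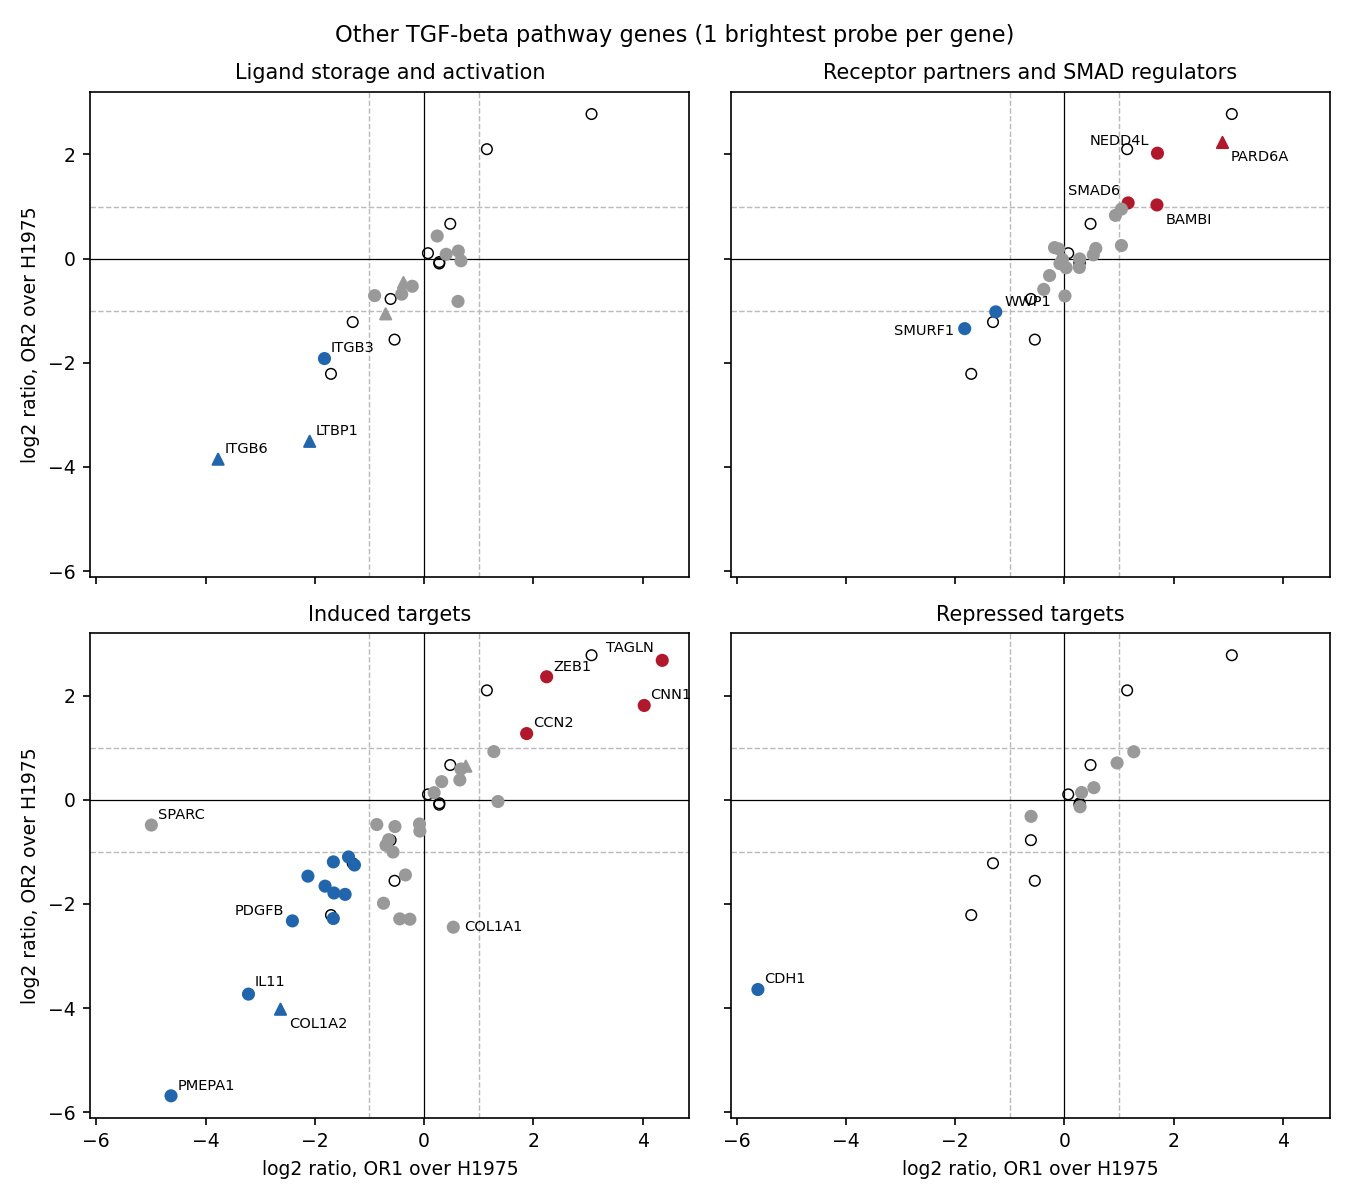
Log2 ratio to H1975 in OR1 (horizontal) and OR2 (vertical) for the genes of 4 pathway lists that have a ratio in both lines and are reported here, where red and blue mark genes past 2 or 0.5 in both, triangles mark a ratio that is a bound in at least 1 line, and open circles repeat the 10 family members in every panel. Both axes share the H1975 array, and dashed lines mark the ratios. The induced targets past a ratio in both lines spread from PMEPA1 at 0.0403 and 0.0194 to TAGLN at 20.5 and 6.39.

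Many of the markers of lung epithelial cells were also lower in both resistant lines than in H1975. Of 10 such genes, which include CDH1, 6 were at or below 0.5 in both lines (EPCAM, CDH1, KRT7, KRT19, CLDN4 and ESRP1), beside 6.32% of all genes, and 10 were well above background in H1975. KRT19 was only just past 0.5 in OR2, at 0.492, and the count is given for the main scaling only. NKX2-1 had ratios of 0.252 and 1.36, ELF3 of 0.543 and 0.839, and neither was at or below 0.5 in both. The summed scaled intensity of the 10 was 2928 in H1975 against 1151 in OR1 and 1253 in OR2, a sum in which the brightest probes weigh most, and the epithelial keratins KRT8 and KRT18 stayed bright in all 3 lines, at 58.3 to 67.8 and 384 to 476. Of 10 fibroblast markers, 4 passed the background call on at least 1 array, and the summed scaled intensity of all 10 was 4.43 for H1975, 5.06 for OR1 and 0.718 for OR2. Most of that sum was COL1A1, at 2.93, 4.24 and 0.537 in the same order, so it does not describe the markers as a set. LUM was well above background in OR1 alone, at least 5.42-fold higher than in H1975, and FAP in H1975 alone. The markers COL3A1, DCN, PDGFRA, THY1, POSTN and COL6A3 were well above background on none of the arrays. COL1A1, COL1A2, COL3A1 and POSTN are also in the list of induced targets, and DCN is in that of ligand storage. Of 8 endothelial and leukocyte markers, 6 were analysed here and 4 were well above background, with a sum over the 6 of 0.738 in H1975, compared with 0.911 in OR1 and 0.807 in OR2. The part of epithelial marker loss in the ratios of the TGF-β family was not tested.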

How the data were processed

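The authors hybridized RNA of H1975, OR1 and OR2 to 1 Agilent single-colour array each and deposited the scanner software's spot intensities, corrected for background and not scaled between arrays, with its error estimates. Per the file headers the software was Agilent Feature Extraction 10.7.1.1, and the submitters' processing notes give 9.5.1.1. A deposited table of normalized intensities, whose normalization is not given in the sources used here, served as an alternative. Its values differed from quantile-normalized scanner values by a median of 0.00134 (log2, absolute) over 58200 probes. The alternatives of quantile normalization and of the authors' values are therefore nearly the same and do not count as separate checks.

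Control and outlier spots (45, 61 and 46 per array) were left out, repeated spots were averaged on the log2 scale, and the 75th percentile of each array (intensities of 157.5, 138.1 and 161.8) was subtracted, over 58200 probes. A gene was represented by its probe with the highest mean, counted at the study's ratios of 2 and 0.5, and counted only where the higher side was well above background. Where 1 side was not, it was set to the lowest intensity so called (0.0798, 0.0826 and 0.0780 of the percentile, or the probe's own if higher), giving a bound. The number of arrays limits the precision.

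Named genes were all members, SMAD4, up to 8 genes per pathway list and direction past a ratio in both lines, ranked by the less changed line, and the 2 genes nearest to each called member. Members, lists and tests were chosen with earlier results of these data known. Of 13 member probes, 10 had an accession in the RefSeq table, with the same symbol. The values of some genes that this rule names are not reported here. Positions are hg19 as deposited. The 13 alternatives covered scaling, background, filters and ratios. The counting was checked on simulated data. Python 3.11.15, numpy 2.4.6, pandas 2.3.3, matplotlib 3.10.9, R 4.3.3 and limma 3.58.1 (normexp, offset 50) were used.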

Additional observations from a re-analysis of the deposited data

Results flagged for a closer look

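Of the members, the pathway genes named in the report and the 2 matrix genes described under the other observations, 4 had resistant lines on opposite sides of H1975, each measured on 1 array per line, and the difference between OR1 and OR2 was not tested. Of all 78 pathway genes with a ratio in both lines, 11 lay on opposite sides, SMAD4 and COL1A1 among them. TGFB2 stood at 1.21 times H1975 in OR1 and 0.955 times in OR2. TGFB3 stood at 1.21 times H1975 in OR1 and 0.937 times in OR2. The ratios of SMAD4 were 0.931 in OR1 and 1.14 in OR2. For TGFB2, TGFB3 and SMAD4 each ratio was within 2 technical SDs of 1. COL1A1, a fibrillar collagen gene of the induced target list, stood at 1.45 times H1975 in OR1 and 0.183 times in OR2.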

How the results depend on the processing

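Of 297 member ratios under the 10 alternatives that give them, 255 moved by less than 1 technical SD, 42 by more (20 with spike-in scaling, 10 with no scaling, 8 with normexp, 2 with quantile normalization and 2 with the authors' values), and 0 ratios past 2 or 0.5 moved to the other side of 1. The number of members at a ratio of at least 2 in both lines was 1 with no scaling, 1 with spike-in scaling (TGFBR3 in both, with TGFBR2 at 1.46 in OR1 under the latter), 1 with normexp and 1 when all 3 arrays had to be well above background (TGFBR2 in both, with TGFBR3 at least 2.14-fold and 1.88-fold higher under normexp), and 1 at a ratio of 4 (TGFBR3). The number at or below 0.5 in both was 1 with normexp (TGFBI, with SMAD7 at 0.505 in OR2), 0 at a ratio of 0.25, 3 with spike-in scaling (TGFB1 added) and 3 at a ratio of 1.5 and its inverse (TGFBR1 added). With spike-in scaling the median log2 ratio in OR1 was -0.36 for ligand storage, -0.45 for regulators, -1.17 for induced and -0.29 for repressed targets, while that of all genes moved from 0.03 to -0.57. With normexp the induced targets were at -0.28 in OR1 and -0.61 in OR2. Counts of the pathway lists under these ways of scaling and background correction were chosen after seeing the data. The number of regulators at or below 0.5 in both was 1 with quantile normalization, no scaling, the percentile over well measured probes, spike-in scaling and the authors' values, and 0 with normexp, which left 2 regulators at or above 2. With quantile normalization, the authors' values and the percentile over well measured probes, 5 regulators were at or above 2 in both (USP4 added). With quantile normalization and with the authors' values, 1 repressed target (MYC) was at or above 2. Over all genes, 1141 were up and 1417 down in both lines (44.6% up), beside 591 and 1584 with spike-in scaling (27.2% up), 458 and 701 with normexp, 887 and 873 when all arrays had to be well above background, 2057 and 2437 with no background filter, 2573 and 2957 at a ratio of 1.5, and 265 and 422 at a ratio of 4. The causes were not tested. No paired analysis was possible because each line had 1 array, and signal over background limits the ratios of TGFBR3 and the dimmer TGFBR2 probe.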

Other observations

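SPARC and COL1A1, matrix genes of the induced target list, differed between the resistant lines and were chosen after their values were seen. SPARC, which encodes a collagen-binding matrix protein, had a scaled intensity of 5.89 in H1975 against 0.185 in OR1 and 4.21 in OR2, so that OR2 was 22.7-fold above OR1. COL1A1 had 2.93 for H1975, 4.24 for OR1 and 0.537 for OR2, so that the lowest line for COL1A1 was OR2 and the lowest for SPARC was OR1. Between OR2 and OR1, 10 of the 38 induced targets measured were at or below 0.5 (2.89% of all genes) and 2 at or above 2 (2.48% of all genes). These counts are given for the main scaling only. Ratios of OR2 to OR1 depend on the scaling, and that of TGFB1 moved from 0.495 to 0.787 with spike-in scaling.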
